A study of Mus musculus with 3 samples.

Results

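C1q macrophages of healing mouse skin wounds were compared between day 6 and day 3 after injury. The cells were chosen by a gate on their own transcripts: at least 200 detected genes, under 10% of UMIs (unique molecular identifiers, each standing for 1 captured mRNA molecule) from mitochondrially encoded genes, at least 2000 UMIs, no UMI of Ly6c2, no UMI of Cd209a, and at least 3 UMIs summed over C1qa, C1qb and C1qc. The gate kept 332 cells, 63 from day 3 and 269 from day 6, of 2668 barcodes in these libraries and 4877 in all. The monocytes and macrophages came out of digested wounds of male mice of the inbred strain C57BL6/J and were profiled with the 10x Chromium droplet platform. Each day is 1 library of cells pooled from 2 mice, and the age of the mice and the kind of wound are not given in the sources used here. There is no replicate library, so the values describe these libraries and no test was made. Intervals are exact 95% intervals for counting error only and say nothing of the spread between mice. The library of day 10 is given as a level beside the 2 days compared.

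C1q is the first component of the classical complement pathway, and tissue macrophages are among its main producers. In a skin wound, circulating monocytes that carry Ly6C enter in the first days, and many of them become macrophages that clear dying neutrophils, take up lipid and debris, and release growth factors. Losing Ly6c2 and gaining C1q are common marks of that change, while Cd209a marks a dendritic cell state derived from monocytes.

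Under the gate, 63 of 879 day 3 cells that met the quality filter and the minimum of 2000 UMIs were C1q macrophages, or 7.17% (5.55 to 9.08%). At day 6 the number was 269 of 551, or 48.8% (44.6 to 53.1%), and at day 10 it was 656 of 1272, or 51.6%. The Ly6c2 condition removed far more cells at day 3. Of the cells with at least 3 C1q UMIs, 117 of 188 carried Ly6c2 at day 3 and 20 of 296 at day 6. The gated day 3 cells are therefore the minority of C1q cells in which no Ly6c2 was detected, and 21 further day 3 cells missed the gate by a single Ly6c2 UMI, against 5 at day 6. On the C1q side the threshold touched few cells: 1 day 3 cell and 5 day 6 cells had exactly 3 C1q UMIs, and 5 and 9 cells just outside had 2. Gated cells had a median of 41 C1q UMIs at day 3 and 49 at day 6, out of medians of 8388 and 10557 UMIs in all, and medians of 4.63% and 4.22% mitochondrial UMIs. These values chose the cells and are given as a description.

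The summed profiles held 605974 UMIs at day 3 and 3268804 at day 6. They are given as CPM (the UMIs of a gene scaled to a fixed total per sum), on which scale 3 UMIs are 4.95 CPM at day 3 and 0.918 CPM at day 6, so low genes are much less well measured at day 3. All 18 monocyte and macrophage markers were detected on both days, and their summed level was 29407 CPM at day 3 and 34182 at day 6. Markers of other cells were low. Neutrophil markers summed to 99.0 and 191 CPM, with Ly6g, Ngp, Camp and Ltf at 0 on both days and 8 of 12 markers at 0 at day 3. Dendritic cell markers summed to 8.25 and 26.0 CPM with Clec9a at 0 on both days, Langerhans cell markers to 0 and 18.4, fibroblast markers to 19.8 and 20.5, and T cell markers to 0 and 1.22. Markers of natural killer and innate lymphoid cells summed to 142 and 169 CPM with Ncr1, Nkg7 and Gzma at 0 on both days. Those of red cells and platelets came to 153 and 3892 CPM. At day 6, 4 cells held 12641 of the 12648 hemoglobin UMIs. Scrublet called 0 and 5 of the gated cells as doublets, and the 2 libraries shared no barcode.

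Of 8868 genes with at least 20 UMIs over both sums, 2027 (22.9%) were at least 1.5-fold higher at day 6 and 988 (11.1%) at least 1.5-fold lower. Many of these are low genes: with at least 100 UMIs the numbers were 834 (17.6%) and 448 (9.47%) of 4732. Among the 1631 genes with at least 100 CPM on either day the balance turned, with 186 (11.4%) higher and 239 (14.7%) lower and a median log2 ratio of −0.046. The median log2 ratio of all measured genes was 0.13. Of that set, without gate genes, mitochondrial and ribosomal genes, gene models and markers of other cell types (hemoglobin genes and Ppbp among them), day 6 cells stood highest over day 3 in the chemokine Ccl8, the fatty acid carrier Fabp4, the metal-binding protein Mt2, the glutathione transferase Mgst1 and the melanosome and lysosome glycoprotein Gpnmb. They stood lowest in Chil3 and Plac8, both typical of young monocytes, then in Slfn4, Ifitm6, Ms4a4c, Zbp1, Mgl2, Phf11b, Ifitm1, Vcan, Ifitm3, Irf7 and Isg15 in that order, of which Slfn4, Zbp1, Phf11b, Ifitm3, Irf7 and Isg15 are induced by interferon.

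**Figure D1:**
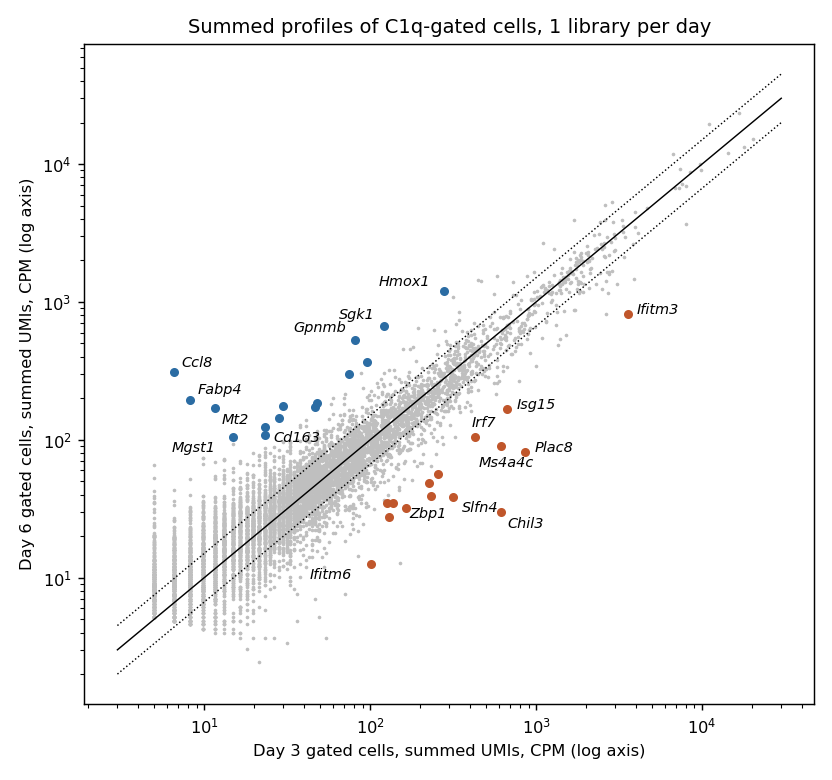
Summed UMIs of C1q-gated cells at day 3 (x axis) and day 6 (y axis), in CPM on log axes. Each grey point is a gene with at least 3 UMIs on both days and at least 20 over both, the solid line is equality, the dotted lines are 1.5-fold, blue points are the 15 genes with the highest ratio and orange points the 15 with the lowest. Ccl8 and Fabp4 lie at the upper left, at 309 and 195 CPM at day 6, and Chil3 and Plac8 at the lower right, at 611 and 859.8 CPM at day 3.

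The clearest group was the response to type I interferon, a family of antiviral cytokines. Of 31 measured genes of the list, 25 were at least 1.5-fold lower at day 6 and 1 was higher, and the median was 2.32-fold lower (log2 −1.21). The summed level of the list was 9157 CPM at day 3 and 3139 CPM at day 6. Ifitm3, a membrane protein that blocks virus entry, stood at 3555 CPM at day 3, 813 at day 6 and 626 at day 10, which was 4.37-fold lower at day 6 than at day 3 (4.13 to 4.63). Isg15, a ubiquitin-like modifier (chr4:156199424-156200818, minus strand, GRCm38), stood at 670.0 CPM, then 168 and then 26.7, or 3.98-fold lower at day 6 (3.49 to 4.54). Irf7, the transcription factor that amplifies interferon production (chr7:141262706-141266481, minus strand), had 429 and 104 CPM on these days, 4.13-fold lower at day 6. These 3 genes were lower again at day 10, so day 6 lies between the other days. Slfn4, a schlafen family member of myeloid cells, had 314 and 38.2 CPM (8.20-fold lower, 6.51 to 10.4). Zbp1, a sensor of Z-form nucleic acids, had 233 and 39.2 CPM (5.94-fold lower). Phf11b had 130.4 and 27.5 CPM (4.73-fold lower). Phf11b and the Ifitm and Slfn genes have close paralogs with which UMIs can be shared.

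A few genes of the same list had no lower summed level, and their values depended on which cells were summed. Cxcl10, a chemokine for T cells, stood at 252 CPM at day 3 and 264 at day 6, a ratio of 1.05 (0.880 to 1.25). Its UMIs sat in few cells, 12 of 63 at day 3 and 52 of 269 at day 6, and the top cell held 43.8% and 31.4% of them. Within 3 ranges of C1q CPM per cell, its log2 ratio was 0.20 in the lowest, 2.38 in the middle and −2.17 in the highest, and it was −1.05 with the gate on thinned counts. Rsad2, the antiviral enzyme viperin, had 168 and 167 CPM (chosen for naming after its values were seen). Its log2 ratio was 1.13 in the lowest C1q range, −2.94 in the middle and −3.34 in the highest, and −1.48 with the gate on thinned counts, so the equal sums cover opposite differences. Ifit2 had 7 UMIs at day 3 and 77 at day 6, a ratio of 2.04 whose interval spans 1 (0.944 to 5.24). For Ifit2 the direction turned without the Ly6c2 and Cd209a conditions, with the gate on thinned counts and at the highest C1q levels. At day 10, Cxcl10 stood at 34.2 CPM and Rsad2 at 10.7.

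The core of the interferon-stimulated response element, or ISRE (GAAA, any 2 bases, GAAA, or the same on the other strand), was looked for in RefSeq promoter windows of GRCm38.p6, from 250 bases before to 50 after each gene start. It was found in 16 of the 25 measured list genes that have a window (64.0%), among them Isg15, Ifitm3, Phf11b, Cxcl10 and Rsad2, and in 3.99% of all 27025 genes with one (3.44% of 32851 windows). The 250 bases before the start are shown for 2 list genes that were lower at day 6 and for 2 whose summed level was not, with matches in capitals, which overlap one another in Isg15.
Isg15, chr4:156200819-156201068, minus strand: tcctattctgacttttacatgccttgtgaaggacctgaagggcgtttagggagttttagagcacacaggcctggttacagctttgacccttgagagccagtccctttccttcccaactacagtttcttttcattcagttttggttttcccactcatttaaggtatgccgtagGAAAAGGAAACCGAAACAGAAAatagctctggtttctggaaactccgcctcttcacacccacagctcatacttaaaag
Phf11b, chr14:59341331-59341580, minus strand: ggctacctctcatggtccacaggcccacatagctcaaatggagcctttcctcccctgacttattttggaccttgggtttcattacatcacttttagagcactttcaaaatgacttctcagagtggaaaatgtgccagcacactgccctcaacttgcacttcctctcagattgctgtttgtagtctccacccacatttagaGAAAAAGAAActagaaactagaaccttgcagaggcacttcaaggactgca
Rsad2, chr12:26456453-26456702, minus strand: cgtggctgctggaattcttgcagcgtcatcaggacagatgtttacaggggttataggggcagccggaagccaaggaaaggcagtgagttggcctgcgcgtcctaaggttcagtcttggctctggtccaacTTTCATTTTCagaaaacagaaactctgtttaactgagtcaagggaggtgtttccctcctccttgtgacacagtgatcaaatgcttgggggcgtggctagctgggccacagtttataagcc
Cxcl10, chr5:92348890-92349139, minus strand: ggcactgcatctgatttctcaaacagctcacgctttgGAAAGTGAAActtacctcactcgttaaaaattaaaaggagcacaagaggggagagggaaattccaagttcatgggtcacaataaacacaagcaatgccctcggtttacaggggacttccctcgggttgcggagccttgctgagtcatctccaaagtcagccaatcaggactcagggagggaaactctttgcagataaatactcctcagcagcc
Isg15 holds 3 matches between 78 and 66 bases before the start, Phf11b 1 at 50 bases, Rsad2 1 at 120 bases and Cxcl10 1 at 213 bases. A match is a stretch of letters and does not show that a factor was bound.

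Monocyte genes were lower as well. Of 20 measured genes of the classical monocyte list, 10 were at least 1.5-fold lower at day 6 and 4 higher, with a median of 1.58-fold lower (log2 −0.66). The genes described next, from Chil3 to Fcgr1, all lie on the lower side. S100a8, counted above among the neutrophil markers, went the other way, at 24.8 and 80.5 CPM (ratio 3.25, 1.93 to 5.89). Chil3, a chitinase-like secreted protein (chr3:106147554-106167564, minus strand), had the lowest ratio among the genes that the naming rule allowed. It stood at 611 CPM at day 3, 30.0 at day 6 and 22.5 at day 10, or 20.4-fold lower at day 6 than at day 3 (16.3 to 25.7), with UMIs in 36 of 63 and 41 of 269 cells. After thinning every cell to 2000 UMIs, 39.7% of day 3 cells (27.6 to 52.8%) and 3.72% of day 6 cells (1.80 to 6.73%) had a Chil3 UMI. In Cd209a-positive cells without C1q, in which free RNA and their own transcripts cannot be told apart, the shares were 3.66% and 1.03%, at medians of 16066.5 and 17801 UMIs before thinning. Plac8 (chr5:100553725-100572245, minus strand) stood at 859.8 and 82.0 CPM, 10.5-fold lower (9.03 to 12.2). Ms4a4c stood at 611 and 90.9 CPM, 6.72-fold lower, and Ifitm6 at 101 and 12.5 CPM, 8.03-fold lower. Ccr2, the receptor that draws monocytes out of bone marrow, stood at 794 and 266 CPM, 2.99-fold lower (2.67 to 3.35). Vcan, a matrix proteoglycan of monocytes, stood at 257 and 56.6 CPM, 4.55-fold lower. Fcgr1, the high-affinity receptor for IgG, was counted above as a marker of monocytes and macrophages together. It stood at 576 and 216 CPM, 2.67-fold lower. The mature macrophage list leaned the other way, with 10 of 20 genes at least 1.5-fold higher at day 6 and 3 lower (median log2 0.50). Of the single macrophage genes fixed for naming, Adgre1, which encodes F4/80, had a ratio of 1.19 (0.986 to 1.45), Mrc1, the mannose receptor CD206, 1.39, and the fractalkine receptor Cx3cr1 stood at 109 and 103 CPM.

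MHC class II genes, which present antigen to CD4 T cells, were lower at day 6. Of 8 measured genes, 6 were at least 1.5-fold lower and none was higher, with a median log2 ratio of −0.84, which shrank to −0.23 with the Ly6c2 and Cd209a conditions left out. Cd74, the invariant chain, stood at 8018 CPM at day 3, 3659 at day 6 and 2709.7 at day 10 (2.19-fold lower at day 6, 2.12 to 2.27). H2-Ab1 stood at 2751, 1646 and 1058 CPM (1.67-fold lower, 1.58 to 1.77). These transcripts were carried by part of the cells. With all cells thinned to 2000 UMIs, the median cell had 3 class II UMIs at day 3 and 1 at day 6, while the highest had 125 and 141. Cells with at least 20 class II UMIs, a cut set after seeing the data, were 20 of the 63 day 3 cells (31.7%, 20.6 to 44.7%), 56 of the 269 day 6 cells (20.8%, 16.1 to 26.2%) and 81 of the 656 day 10 cells (12.3%, 9.93 to 15.1%), and 4, 11 and 10 cells lay within 5 UMIs of the cut. The day 3 and day 6 intervals overlap. Cd209a-positive cells, the strongest class II expressers set beside them, had 12436 and 12846 CPM of H2-Ab1. Of 15 measured class I and peptide-loading genes, 6 were lower and 1 was higher.

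Lysosomal genes were higher at day 6. Of 27 measured genes, 16 were at least 1.5-fold higher and none was lower, with a median log2 ratio of 0.62 and summed levels of 18699 CPM at day 3 and 31593 CPM at day 6. Its most abundant proteases and their helper were chosen for naming after their values were seen. Ctsb, a cysteine protease, stood at 2602 CPM at day 3, 5016 at day 6 and 2813 at day 10. Ctsl, another one, stood at 1685, 3951 and 3461 CPM, and Ctsd, an aspartic protease, at 1096, 2664 and 1742. Psap, the precursor of the saposins that help to degrade sphingolipids, stood at 2859.9, 5263 and 3185 CPM. The ratios of day 6 over day 3 were 1.93 (1.83 to 2.03), 2.35 (2.20 to 2.50), 2.43 (2.25 to 2.64) and 1.84 (1.75 to 1.93) in that order, and each of these genes was highest at day 6 of the 3 days. Their UMIs were found in 59 to 63 of 63 cells and 253 to 269 of 269 cells.

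The E-box CACGTG, which reads the same on both strands and lies within the motif of the lysosomal regulator TFEB, was found in the windows of 7 of 20 lysosomal genes that have one (35.0%) and of 8.09% of all genes (7.15% of windows). A pair of proteases that hold it are shown with the motif in capitals.
Ctsd, chr7:142387828-142388077, minus strand: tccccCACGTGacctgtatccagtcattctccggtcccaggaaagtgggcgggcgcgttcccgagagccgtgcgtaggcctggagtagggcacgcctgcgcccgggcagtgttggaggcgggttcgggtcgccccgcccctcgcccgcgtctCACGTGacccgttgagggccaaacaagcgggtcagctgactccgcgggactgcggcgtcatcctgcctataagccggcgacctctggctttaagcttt
Ctsl, chr13:64370521-64370770, minus strand: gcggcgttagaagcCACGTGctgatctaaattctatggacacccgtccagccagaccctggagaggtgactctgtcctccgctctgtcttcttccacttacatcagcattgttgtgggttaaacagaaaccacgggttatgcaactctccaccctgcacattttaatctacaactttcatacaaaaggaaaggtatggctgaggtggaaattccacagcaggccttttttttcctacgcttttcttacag
Ctsd holds 2 matches, at 245 and 98 bases before the start, and Ctsl 1 at 236 bases. Psap, which was higher too, holds none in its windows.

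Lipid handling and efferocytosis, the uptake of dying cells, went with the lysosomal genes. Of 23 measured lipid genes, 15 were at least 1.5-fold higher and 1 was lower (median log2 0.86). Of 18 efferocytosis genes, 11 were higher and none was lower (median log2 0.80). Apoe, the lipoprotein component that carries cholesterol out of cells, was among the most abundant transcripts, at 6664 CPM at day 3, 11816 at day 6 and 15200.1 at day 10 (ratio 1.77 at day 6, 1.72 to 1.83; named after its values were seen). Trem2, a lipid-sensing receptor, stood at 282 and 616 CPM (2.18-fold higher, 1.87 to 2.56). Mertk, the receptor tyrosine kinase that binds phosphatidylserine on dying cells through bridging proteins, stood at 23.1 and 108 CPM (4.67-fold higher, 2.75 to 8.64) and was found in 13 of 63 and 155 of 269 cells. Spp1, osteopontin, stood at 2418 and 3803 CPM (ratio 1.57), but the top day 3 cell held 38.2% of its UMIs, and its direction turned when cells with 5 or more UMIs of other cell types were left out.

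The highest ratios were carried by subsets of the day 6 cells. Ccl8, a chemokine of tissue-resident macrophages (chr11:82115185-82116799, plus strand), had 4 UMIs (6.60 CPM) at day 3 and 1010 UMIs (309 CPM) at day 6, 46.8-fold higher (18.2 to 172), and 147 CPM at day 10. Its UMIs came from 43 of 269 day 6 cells, the top cell holding 27.4% of them. Fabp4 (chr3:10204088-10208576, minus strand) had 5 and 638 UMIs, or 8.25 and 195 CPM, 23.7-fold higher (10.1 to 73.1), in 5 and 66 cells. At day 10 it stood at 30.4 CPM, between the other days. Gpnmb (chr6:49036546-49070929, plus strand) had 80.9 CPM at day 3, 533 at day 6 and 116 at day 10, 6.59-fold higher at day 6 (4.97 to 8.95), in 7 and 122 cells. After thinning, a Gpnmb UMI was found in 9.52% (3.58 to 19.6%) of day 3 and 26.4% (21.2 to 32.1%) of day 6 cells and in none of the Cd209a-positive cells. The subsets with Fabp4 and with Gpnmb overlapped. Of the 66 day 6 cells with Fabp4, 38 (57.6%) had Gpnmb, against 45.4% of all gated day 6 cells. These 38 were 31.1% of the 122 cells with Gpnmb, and 24.5% of all gated day 6 cells had Fabp4. Ccl8 overlapped less, with Gpnmb in 16 of its 43 cells (37.2%). Depth of a cell affects such counts, and they are a description.

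Some genes differed only as far as single day 3 cells allowed. Mmp12, macrophage elastase, stood at 578 CPM at day 3 and 1532 at day 6 (ratio 2.65), but 1 day 3 cell held 98.9% of its 350 UMIs, and with the top cell of each day left out the log2 ratio went from 1.41 to 7.69. It was found in 4 day 3 and 86 day 6 cells. Gdf15, a stress-induced cytokine, had 78.6% of its day 3 UMIs in 1 cell (46.2 and 174 CPM). Lyve1, the hyaluronan receptor of resident macrophages around vessels, had all 12 day 3 UMIs in 1 cell and 155 UMIs in 14 cells at day 6. Cd163, the receptor for hemoglobin bound to haptoglobin (chr6:124304656-124330527, plus strand), stood at 23.1 and 123 CPM, 5.32-fold higher (3.14 to 9.83), from 5 and 27 cells. With the mitochondrial limit at 5%, which left 34 day 3 and 178 day 6 cells, Cd163 and Lyve1 turned to lower. The thinned share of cells with Cd163 at day 6, 5.95%, did not exceed the 7.22% of Cd209a-positive cells, so that share is not read as a difference. Fcrls, an Fc receptor-like scavenger protein, stood at 28.1 and 143 CPM. Of 18 measured genes of the resident dermal macrophage list, 8 were higher and 1 was lower (median log2 0.54). The lower one was the chemokine Ccl24, at 137 and 34.9 CPM, whose direction also turned at the 5% limit.

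**Figure D2:**
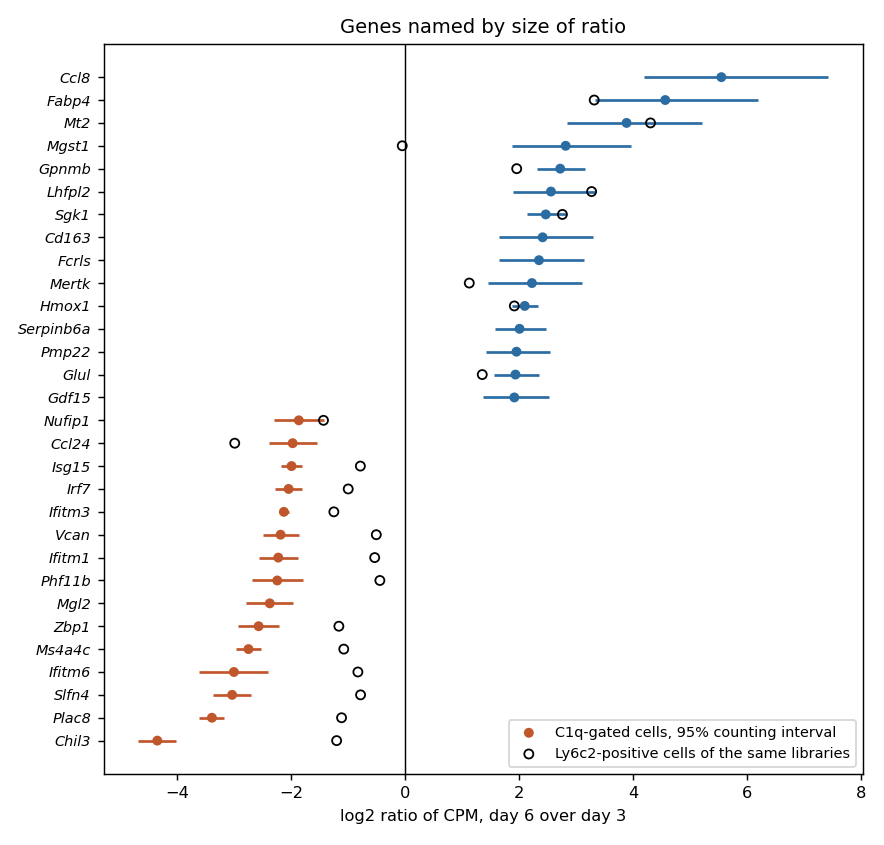
Ratio of CPM of day 6 over day 3, on a log2 axis, for the 15 highest and the 15 lowest genes of the naming rule. Filled points are C1q-gated cells with 95% counting intervals, blue for higher and orange for lower, and open circles are Ly6c2-positive cells of the same libraries, where both libraries had at least 3 UMIs and at least 20 in all. The orange genes lie further from 0 in C1q cells in all but Ccl24, and Mgst1 lies near 0 only in the Ly6c2-positive cells.

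Single genes of heme and metal handling were higher, while their lists were mixed. Hmox1, which breaks down heme (chr8:75093621-75100589, plus strand), stood at 279 CPM at day 3, 1194 at day 6 and 1909 at day 10 (4.28-fold higher at day 6, 3.67 to 5.03), in 47 of 63 and 231 of 269 cells. The 4 hemoglobin-rich day 6 cells did not set this value, since the log2 ratio was 2.10 with them and 2.07 without. Mt2, a metallothionein, stood at 11.6, 171 and 592 CPM (14.8-fold higher at day 6, 7.12 to 36.9), and Mt1 at 342, 843 and 3057 CPM (2.47-fold higher). Both metallothioneins went on to higher levels at day 10. Mgst1, a glutathione transferase of membranes, had 9 and 342 UMIs (14.9 and 105 CPM), 5 of 9 of those day 3 UMIs coming from 1 cell. Of 15 measured antioxidant genes, 6 were higher and none was lower (median log2 0.42), and of 14 iron and heme genes 5 were higher and 1 was lower, with a median log2 ratio of 0.19 that ranged from −0.15 to 0.48 over the alternatives. Of 6 metallothionein and zinc genes, 3 were higher and 1 was lower. These list counts stand beside 22.9% higher and 11.1% lower over all measured genes. The glutamine synthetase Glul stood at 95.7 and 366 CPM, the kinase Sgk1 at 120.5 and 666 CPM, and the myelin-type membrane protein Pmp22 at 47.9 and 185 CPM.

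Inflammatory genes were mixed. Among 14 inflammatory cytokines and enzymes that were measured, 6 were at least 1.5-fold lower and 3 higher (median log2 −0.28), and the sum was 7005 CPM at day 3 and 3845 CPM at day 6, with Il1b as its most abundant member. Il1b, the cytokine interleukin 1 beta, stood at 3881 CPM at day 3, 1477 at day 6 and 2126 at day 10 (2.63-fold lower at day 6, 2.50 to 2.76). Tnf stood at 429 and 427 CPM, a ratio of 0.996 (0.872 to 1.14). From the lowest to the highest of the 3 ranges of C1q CPM, its log2 ratio was 0.35, 0.27 and −1.19. The median of the inflammatory list was −0.44, −0.09 and −1.19 in these ranges. Over the alternatives to the gate, scaling and minimum, that median ranged from −1.16 to −0.17. Il10, the cytokine that dampens inflammation, had 7 and 226 UMIs (11.6 and 69.1 CPM), 5.99-fold higher (2.86 to 15.1), in 4 and 35 cells. Of 14 feedback genes of NF-kB, 6 were lower and none was higher. Of 19 chemokines, 6 were higher and 8 lower. Measured genes of wound repair leaned to day 6: of 14 growth factor genes 9 were higher and none was lower (median log2 1.11). The share of higher genes among all measured genes was 22.9%. Some of the 14 have under 10 UMIs at day 3, such as Pdgfc (1 and 72 UMIs) and Hgf (2 and 63). The gene minimum is over both sums, and day 6 held 5.39 times the UMIs of day 3. Such genes passed on their day 6 UMIs, so the count favors higher genes. The summed level of the list was 1728 CPM at day 3 and 2675 CPM at day 6. Igf1 stood at 66.0 CPM at day 3 and 119 at day 6 (1.80-fold higher, 1.30 to 2.56), with 52.5% of its day 3 UMIs in 1 cell and no difference of that direction at intermediate C1q levels. Vegfa stood at 431 and 451 CPM, a ratio of 1.05 (0.917 to 1.20).

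Genes taken for classical and alternative activation gave no single direction. Arg1, which consumes arginine, stood at 972 CPM at day 3, 1636 at day 6 and 4378 at day 10 (1.68-fold higher at day 6, 1.55 to 1.84). The Arg1 log2 ratio of 0.75 ranged over the alternatives from 0.20, with the gate on thinned counts, to 1.11. Nos2, its inducible competitor, had no UMI at day 3 and 20 at day 6 (6.12 CPM). A day 3 level near 4.95 CPM, or 3 UMIs, would not be told from 0. With the day 3 sum set to 3 UMIs the log2 ratio was 0.31, so Nos2 is not read as a difference. Mgl2 stood at 165 and 31.8 CPM (5.19-fold lower) from 6 day 3 cells, and at 231 and 509 CPM in Cd209a-positive cells. The alternative activation list had 5 of 17 genes higher and 4 lower, and its median (log2 −0.15) and its sum (ratio 1.03) differ in sign. Of 18 hypoxia genes, 4 were higher and none was lower (median log2 0.31), a count of higher genes near the 22.9% of all measured genes. The oxygen sensor Egln3 stood at 21.5 and 27.8 CPM and at 172 CPM at day 10. Glycolysis (0 higher and 2 lower of 15) had a median log2 ratio of −0.26 and oxidative phosphorylation (2 and 1 of 20) of −0.09. Both lie below the 0.13 of all measured genes. For genes with at least 100 CPM on either day the median was −0.046, close to that of oxidative phosphorylation. The oxidative phosphorylation median ranged from −0.15 to 0.18 over the alternatives and is not read as a difference. Of 19 unfolded protein response genes, 9 were lower and none was higher, led among named genes by Sdf2l1, an endoplasmic reticulum chaperone partner at 149 and 43.4 CPM. Of 26 genes induced by tissue dissociation, 7 were lower and 2 higher, and their part in the other differences was not tested. Nufip1, at 127 and 34.9 CPM, had 42.9% of its day 3 UMIs in 1 cell.

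**Figure D3:**
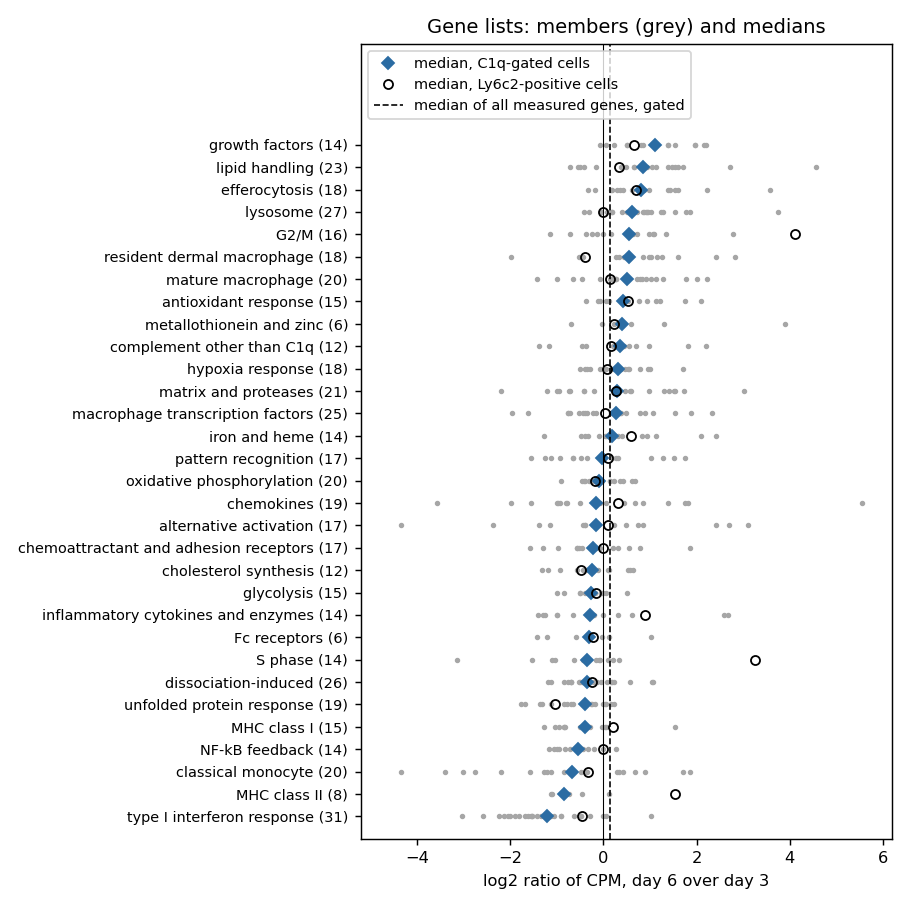
Ratio of CPM of day 6 over day 3, on a log2 axis, for 31 gene lists, with the number of measured genes in brackets. Grey points are members and blue diamonds their median in C1q-gated cells, open circles are medians in Ly6c2-positive cells, and the dashed line is the median of all measured genes in gated cells, 0.13. The interferon, MHC class II and monocyte lists lie lowest and the growth factor, lipid, efferocytosis and lysosome lists highest.

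The same picture held cell by cell for the largest groups. With cells thinned to 2000 UMIs, the median cell carried 14 interferon-list UMIs at day 3 (quartiles 9.5 and 28), 3 at day 6 (2 and 6) and 2 at day 10 (1 and 3). At least 10 such UMIs were present in 47 of 63 day 3 cells (74.6%, 62.1 to 84.7%), in 34 of 269 day 6 cells (12.6%, 8.91 to 17.2%) and in 17 of 656 day 10 cells (2.59%, 1.52 to 4.12%), with 28, 67 and 98 cells within 5 UMIs of that cut, which was set after seeing the data. A few day 6 cells remained far above the rest, up to 114 UMIs, which exceeds the highest day 3 cell at 65. Lysosomal UMIs had medians of 32, 61 and 45, lipid UMIs of 30, 44 and 45 and classical monocyte UMIs of 20, 11 and 15. The day 3 and day 6 cells overlapped in every one of these lists. Inflammatory UMIs had medians of 7, 2 and 3.

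**Figure D4:**
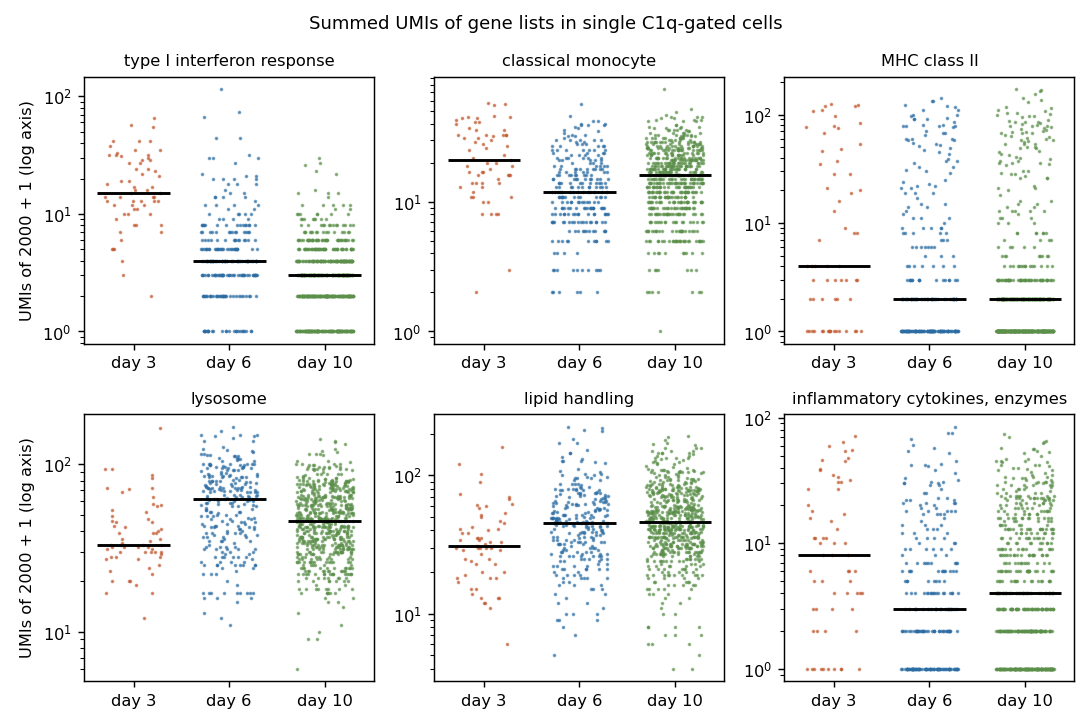
Each point is 1 C1q-gated cell thinned to 2000 UMIs, at the summed UMIs of a gene list plus 1 on a log axis, with black lines at the medians, for 63 day 3, 269 day 6 and 656 day 10 cells. Interferon UMIs have medians of 14 at day 3 and 3 at day 6 and lysosomal UMIs of 32 and 61, and class II UMIs spread over 2 orders on each day.

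Cells of the same C1q level were also compared, in 3 ranges of C1q CPM per cell divided at 3696 and 7712 CPM. The ranges held 20, 24 and 19 day 3 cells and 91, 86 and 92 day 6 cells. Interferon genes were lower at day 6 in each range, with median log2 ratios of −0.73, −1.96 and −2.17 from the lowest range to the highest. Lysosomal genes were higher in each, by 0.92, 0.63 and 0.61, and lipid genes by 1.09, 0.67 and 0.46. MHC class II genes were lower in each, at −0.96, −1.07 and −0.59. Monocyte genes stood at −0.28, −1.01 and −1.02. Resident macrophage genes stood at −0.03 in the lowest range and 0.53 and 0.49 in the others. Differences between the ranges were not tested.

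**Figure D5:**
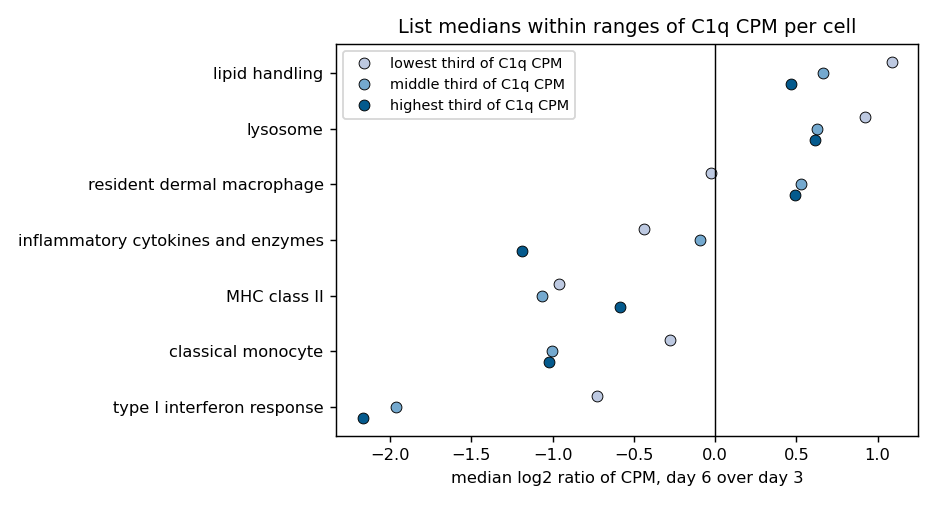
Median log2 ratio of CPM of day 6 over day 3 for 7 gene lists within 3 ranges of C1q CPM per cell, from the lowest (light) to the highest (dark). Interferon, monocyte, MHC class II and inflammatory lists lie below 0 and lysosome and lipid lists above 0 in every range, and the resident list is near 0 in the lowest range.

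Ly6c2-positive cells without C1q (at least 1 Ly6c2 UMI, no Cd209a and under 3 C1q UMIs) were set beside the macrophages to see which differences they had too. They numbered 378 at day 3 and 27 at day 6, with 27.9% of 8251 measured genes at least 1.5-fold higher and 12.6% lower. Their summed UMIs were 4066369 at day 3 and only 299113 at day 6, and sums under 3 UMIs were set to 3. A low gene with no UMI at day 6 can therefore be counted as higher. The share of higher genes may be too large for this reason, and so may the list counts of higher genes in these cells. Interferon genes leaned lower there as well but were mixed, with 13 of 32 lower and 7 higher. Their median log2 ratio was −0.46 against −1.21 in C1q cells. Isg15 stood at 864 and 501 CPM and Irf7 at 414 and 207. The monocyte genes stayed abundant in them: Chil3 stood at 2561 and 1113 CPM and Plac8 at 2622 and 1210.2. Lysosomal genes had a median of −0.01 there (6 of 25 higher), against 0.62 in C1q cells, and lipid genes 0.34 against 0.86. Other lists differed in the same direction in both kinds of cell. Efferocytosis genes had a median of 0.71 in Ly6c2-positive cells (9 of 17 higher) against 0.80 in C1q cells. Antioxidant genes had 0.52 against 0.42. Unfolded protein response genes had −1.03 (13 of 19 lower) against −0.39. Hmox1 (241 and 909 CPM) and Sgk1 (65.2 and 441) were higher at day 6 in both kinds of cell. In Cd209a-positive cells, 82 at day 3 and 97 at day 6, Isg15 stood at 431 and 129 CPM, Irf7 at 160.2 and 63.0, and Il1b at 3304 and 940.1. Isg15 and Irf7 thus had lower levels at day 6 in all 3 kinds of cell, and the rest of the interferon list was not counted in the Cd209a-positive cells. Whether any ratio differs between kinds of cell was not tested, because each day has 1 library.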

How the data were processed

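Monocytes and macrophages from mouse skin wounds were profiled in 3 libraries, of which day 3 and day 6 were compared. The matrices the authors deposited hold raw UMI counts per gene and barcode, made with Cell Ranger 3.0.2 on mm10, per the submitters' processing notes. No source used here gives the annotation behind the counts, and coordinates come from GENCODE vM21 by Ensembl identifier (30934 of 31053 found). Cells were gated on quality, C1q, Ly6c2 and Cd209a, and their UMIs were summed per day. The gated cells, gene lists and alternatives were chosen with earlier results of these data known. Ratios of CPM were taken with exact conditional binomial 95% intervals, a sum under 3 UMIs being set to 3, for genes with at least 20 UMIs over both sums. CPM levels carry exact Poisson intervals and shares of cells exact Clopper-Pearson intervals. All cover counting error only. No test was run, since each day has 1 library. Doublets were scored with Scrublet in scanpy 1.11.5 and kept. Shares of cells and list sums per cell were taken after thinning each cell once to 2000 UMIs. Genes were named by rule: the 15 highest and 15 lowest ratios among genes with at least 100 CPM on either day, without gate genes, mitochondrial and ribosomal genes, gene models and markers of other cell types, then 2 per list and direction, and fixed genes. Other names are marked as chosen after their values were seen. Calculations were tested on simulated counts. Alternatives to the gate, scaling (TMM of edgeR 4.0.16, median of ratios) and gene minimum were run, and library and day cannot be told apart.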

Additional observations from a re-analysis of the deposited data

Results flagged for a closer look

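MHC class II genes had opposite directions in the C1q macrophages and in the Ly6c2-positive cells of the same libraries, which is what brought them here; the difference was not tested, since each day has 1 library. In C1q cells the median log2 ratio of day 6 over day 3 was −0.84 over 8 measured genes, with Cd74 at −1.13 and H2-Ab1 at −0.74. The median in C1q cells shrank to −0.23 with the Ly6c2 and Cd209a conditions left out. In Ly6c2-positive cells the median was 1.53 over 7 genes, 5 of them at least 1.5-fold higher. Of all measured genes in these Ly6c2-positive cells, 27.9% were higher, a share that may be too large for the reason given above. Cd74 stood at 1817 CPM at day 3 and 2999 CPM at day 6 there (ratio 1.65, 1.54 to 1.77), and H2-Ab1 at 512 and 1481 CPM (ratio 2.89, 2.60 to 3.20). The day 6 value rests on 27 cells.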

How the results depend on the processing

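Over 19 alternatives to the gate, scaling and minimum, the 7 lists whose median was past 1.5-fold kept their direction, and 5 of them stayed past 1.5-fold (not MHC class II, nor lysosome). The interferon median ranged from −1.91 to −1.21. Of 50 genes of the text and plots past 1.5-fold, 45 kept their direction and 38 stayed past 1.5-fold under these alternatives. Log2 ratios that turned were, at a mitochondrial limit of 5%, Cd163 (−0.29), Lyve1 (−0.026) and Ccl24 (0.84). Ifit2 turned without the Ly6c2 and Cd209a conditions (−1.07), with the gate on thinned counts (−1.46) and in the highest range of C1q CPM (−1.002). Spp1 turned without cells holding 5 or more UMIs of other cell types (−0.64) and in the middle C1q range (−0.062), where Igf1 did too (−0.071). The causes were not tested. The share of cells passing the gate at day 3 and day 6 was 5.31% and 44.1% with the 5% limit, 10.3% and 53.3% with no limit, 21.4% and 53.7% without the Ly6c2 and Cd209a conditions, and 9.22% and 44.1% with the gate on thinned counts. At day 6 it was 43.7% with at least 10 C1q UMIs and 66.4% without cells holding other types' UMIs. Genes at least 1.5-fold higher and lower numbered 834 and 448 with at least 100 UMIs. The lower ones numbered 649 without the top cell of each gene and 5161 with a minimum of 1 UMI, where day 3 sums under 3 UMIs are set to 3 by construction. No paired analysis was possible because each day has 1 library and no replicate. Depth limits low genes at day 3, where 3 UMIs are 4.95 CPM.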

Other observations

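Other gene groups of the C1q macrophages gave smaller or mixed differences between day 6 and day 3. Over all measured genes, 22.9% were higher and 11.1% lower, and counts near these shares are not read as differences of a list. Of 21 matrix and protease genes, 8 were at least 1.5-fold higher and 6 lower, with a median of 0.30 and a ratio of sums of 0.935, which differ in sign. Of 12 complement genes other than C1q, 4 were higher and 2 lower. Of 25 transcription factors, 6 were higher and 5 lower, again with a median (0.26) and a ratio of sums (0.845) of different sign. Of 6 Fc receptor genes, 1 was higher and 3 were lower, and of 17 pattern recognition genes, 4 were higher and 6 lower. Of 17 chemoattractant and adhesion receptors, 2 were higher and 3 lower, and of 12 cholesterol synthesis genes, 1 was higher and 3 were lower.

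Cell cycle genes were sparse. S phase genes summed to 376 CPM at day 3 and 319 at day 6, with 0 higher and 5 lower of 14. G2/M genes summed to 332 and 381 CPM (ratio 1.15, 0.990 to 1.34), with 8 higher and 2 lower of 16. Over all measured genes, 22.9% were higher and 11.1% lower. Some G2/M genes passed the minimum on their day 6 UMIs, such as Ube2c (2 and 112 UMIs) and Nusap1 (1 and 41), so that count favors higher genes. The G2/M median ranged from −0.57 to 1.58 over the alternatives. In the Ly6c2-positive cells, only 8 of 18 S phase genes and 4 of 20 G2/M genes reached the minimum of 20 UMIs. All of these were higher at day 6, with medians of 3.24 and 4.11 on the log2 scale, from 27 day 6 cells. Of all measured genes in these cells, 27.9% were higher. Genes can pass the minimum on their day 6 UMIs, and sums under 3 UMIs were set to 3. The counts and medians may be too large for these reasons and are not read as a result.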
